A study of Mus musculus with 8 samples.

Results

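E2F3 LQ and WT mouse embryonic fibroblasts (MEFs), fibroblasts grown from the embryo body, were compared after 72 h of serum starvation. The comparison was defined by the sample labels and took 4 of the 8 arrays of the study, 2 clones per genotype, and the other 4 arrays held the same clones while proliferating. E2F3 LQ clones 2 and 4 carried the L430Q change of E2F3 and were set against WT clones 1 and 16. All 4 came from C57BL/6 embryos of day 13.5, grown in DMEM with 10% FBS and, for starvation, in DMEM with 0% FBS. Per the study's methods the MEFs came from intercrosses of heterozygous knock-in mice whose neomycin cassette had been excised with Mox2Cre, and the mutant MEFs are described there as homozygous. Each array stands for 1 clone measured once, so p-values cover only the spread between clones.

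Illumina bead arrays read a gene through short probes fixed to beads. Of 25697 probes, 12530 had a detection p-value under 0.05 on at least 2 of the 4 starved arrays. Taking the brightest probe of a gene left 9455 features (8749 with a gene symbol and 706 without), against 10214 features over all 8 arrays. On the starved arrays 47.5% to 48.3% of probes were detected, with median intensities of 108.4 to 116.9. Of 20 fibroblast markers 16 were above background, and their summed signal lay at 57902 and 62006 in the E2F3 LQ clones and at 61118 and 56178 in the WT clones. Spearman's correlation across genes was lowest between both E2F3 LQ clones, at 0.982, and highest between E2F3 LQ clone 2 and WT clone 1, at 0.988. All signals below are background-corrected, quantile-normalized log2 values, and all differences are E2F3 LQ minus WT on the log2 scale.

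E2F proteins bind DNA with a DP partner and drive genes of the G1/S transition. The Rb family proteins pRb, p107 and p130 bind the activation domain of E2F proteins and hold these genes low in resting cells. MEFs without serum leave the cell cycle, so this is the state in which Rb family repression of replication genes is normally in force. The L430Q change lies in the Rb binding domain of E2F3, and starved cells therefore ask what expression follows when 1 activating E2F escapes that control.

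The promoters of 4 replication genes that were higher in both E2F3 LQ clones, and of E2f3 itself, are shown because they hold an E2F binding motif. RefSeq promoters of build GRCm38.p6 run from 250 bases before to 50 bases after the start of a gene, in the direction of transcription. Capitals mark a match to 1 of 4 words, TTTCCCGC, TTTCGCGC, TTTGCCGC or TTTGGCGC, on either strand.
Mcm6, chr1:128359656-128359955, minus strand: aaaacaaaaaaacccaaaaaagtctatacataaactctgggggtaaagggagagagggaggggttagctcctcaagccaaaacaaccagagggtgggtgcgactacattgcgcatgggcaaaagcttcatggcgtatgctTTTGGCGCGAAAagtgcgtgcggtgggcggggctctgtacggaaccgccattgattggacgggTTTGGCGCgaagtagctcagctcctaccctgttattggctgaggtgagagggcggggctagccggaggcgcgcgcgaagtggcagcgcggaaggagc
Mcm3, chr1:20820263-20820562, minus strand: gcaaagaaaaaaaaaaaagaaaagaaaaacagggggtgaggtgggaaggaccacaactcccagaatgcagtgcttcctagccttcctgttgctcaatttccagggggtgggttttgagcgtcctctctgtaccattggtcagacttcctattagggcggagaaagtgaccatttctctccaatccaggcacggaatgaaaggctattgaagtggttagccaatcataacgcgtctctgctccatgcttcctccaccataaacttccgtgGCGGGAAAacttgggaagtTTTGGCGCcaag
Mcm7, chr5:138171834-138172133, minus strand: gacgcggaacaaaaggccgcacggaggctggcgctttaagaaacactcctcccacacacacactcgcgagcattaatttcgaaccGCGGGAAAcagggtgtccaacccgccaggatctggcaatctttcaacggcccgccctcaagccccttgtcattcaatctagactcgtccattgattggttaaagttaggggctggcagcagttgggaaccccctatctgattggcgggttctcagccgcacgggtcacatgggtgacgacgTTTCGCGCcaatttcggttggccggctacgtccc
Cdt1, chr8:122567765-122568064, plus strand: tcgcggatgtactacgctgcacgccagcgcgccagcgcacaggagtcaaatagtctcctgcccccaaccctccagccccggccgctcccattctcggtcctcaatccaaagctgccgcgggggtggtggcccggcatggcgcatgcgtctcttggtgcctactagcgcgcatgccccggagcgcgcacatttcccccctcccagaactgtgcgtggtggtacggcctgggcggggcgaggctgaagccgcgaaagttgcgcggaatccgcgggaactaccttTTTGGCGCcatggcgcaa
E2f3, chr13:29986014-29986313, minus strand: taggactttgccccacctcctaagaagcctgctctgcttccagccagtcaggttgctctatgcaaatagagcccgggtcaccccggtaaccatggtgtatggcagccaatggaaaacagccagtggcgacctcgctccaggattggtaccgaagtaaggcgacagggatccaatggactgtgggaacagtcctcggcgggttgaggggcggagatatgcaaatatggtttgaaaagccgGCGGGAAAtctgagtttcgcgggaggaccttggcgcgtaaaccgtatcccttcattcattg
In the Mcm6 promoter a TTTGGCGC and a TTTCGCGC on the other strand overlap, so that 3 matches make 2 stretches of capitals. Mcm7 and E2f3 each had 2 promoters in the table and the match in 1 of them.

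A match was found in 2.26% of all 32851 promoters. Among the features tested, 7138 had a promoter in the table, and 4.55% of them had a match in at least 1 promoter. The share was 10.7% of 178 genes that were higher at an unadjusted p under 0.05 and 3.92% of 204 genes that were lower. It was 52.9% of 17 origin licensing and MCM genes, 38.1% of 21 replication fork genes and 57.1% of 7 genes of the E2F, DP and Rb families. In contrast it was 0% of 7 replication histone chaperone genes, 0% of 10 deoxynucleotide synthesis genes and 0% of 15 Hox genes. These shares describe letters in a window and not binding.

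limma, fitted on the 4 starved arrays alone, called 0 genes higher and 0 lower at an adjusted p under 0.05 (0% and 0% of features). The smallest adjusted p was 0.845. At an unadjusted p under 0.05 there were 244 features higher (2.58%) and 306 lower (3.24%), or 158 and 101 when arrays were scaled to a common median, which shifted the median of all features to 0.091. Both E2F3 LQ arrays lay above both WT arrays for 1580 features (16.7%) and below both for 1613 (17.1%), here called separated upward and downward, together 33.8%. The mean was higher in E2F3 LQ for 50.6% of features, and the median difference of all features was 0.0021. An exact permutation test of a single gene could give no two-sided p below 0.333 at this size. Counts at the unadjusted p also moved with single arrays, to 413 higher without E2F3 LQ clone 2, to 144 and 147 without WT clone 1 and to 104 and 139 without WT clone 16. Median scaling was the setting that brought more than 1 gene past the adjusted threshold, 6 higher (Chil1, Msx1, Angptl7, Mmp3, Mcm6 and Clec11a) and 8 lower (Ms4a6d, Slc15a3, Cd52, Ccl4, Fcer1g, Adgre1, Ccl3 and C1qb). Under that setting alone limma estimated an infinite prior df, against 3.2 with quantile normalization, so that its p-values assume 1 common spread for all genes. No gene is therefore described as changed here, and values are given clone by clone.

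**Figure D1:**
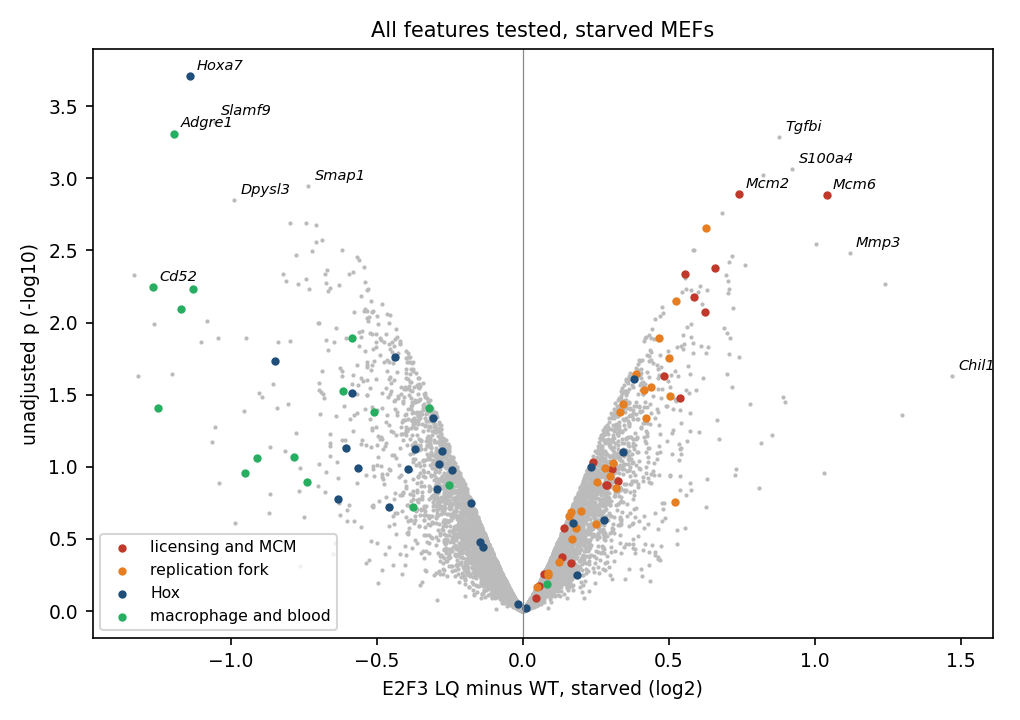
Difference between starved E2F3 LQ and WT MEFs (x axis, log2) against the unadjusted p-value of limma (y axis, -log10) for each of 9455 features, with 4 gene lists coloured. Licensing, MCM and replication fork genes lie right of 0, and 19 of 26 Hox genes and 15 of 16 macrophage and blood cell markers lie left of it.

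E2f3, the mutated gene, gave 5.96 for E2F3 LQ clone 2, 5.83 for clone 4, 6.35 for WT clone 1 and 6.46 for WT clone 16. Both E2F3 LQ clones lay below both WT clones, a difference of -0.51 (standard error 0.12, adjusted p = 0.845 from limma). The array measures the mRNA and not the L430Q base change, so it checks no genotype label. E2f5, a repressive family member, stood at 6.40 and 6.40 against 6.87 and 6.84, a difference of -0.46, also without overlap. Rb1, which encodes pRb, was at 7.39 and 7.33 against 7.73 and 7.60 (-0.30), but a dimmer Rb1 probe was at -0.037 with overlapping clones.

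Of 13 genes of the E2F, DP and Rb families 10 were tested, and the median difference was 0.014. Of the 10, 3 separated upward and 3 downward (30% each, against 16.7% and 17.1% of all features). Rbl1, which encodes p107 and is itself an E2F target, was at 0.24, the DP partner Tfdp1 at 0.17 and the repressor E2f4 at 0.14. The activators E2f1 and E2f2, the repressor E2f6 and the partner Tfdp2 lay at 0.094, 0.022, 0.0068 and -0.052 with overlapping clones. E2f7 and Rbl2 were above background on fewer than 2 arrays, and E2f8 had no named probe. On the proliferating arrays, in a fit over all 8, E2f3 was at -0.35 and its difference between serum conditions was -0.17 (standard error 0.21).

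The MCM helicase, a ring of 6 related subunits that opens DNA at origins, was higher in both E2F3 LQ clones for every subunit. Mcm6 had signals of 7.93 and 8.32 in E2F3 LQ clones 2 and 4 and of 7.06 and 7.10 in WT clones 1 and 16. The difference of 1.04 (standard error 0.17) is 2.06-fold, and the gap between the nearest clones was 0.82. Dimmer Mcm6 probes gave 0.85 and 0.44, both without overlap. With median scaling Mcm6 passed the adjusted threshold (1.15, adjusted p = 0.0152 from limma).

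Mcm2 stood at 7.15 and 7.08 against 6.33 and 6.42, a difference of 0.74 (standard error 0.12). Mcm4 was at 10.18 and 10.41 against 9.68 and 9.59 (0.66). Mcm3 was at 5.67 and 5.96 against 5.27 and 5.12 (0.62), Mcm7 at 5.43 and 5.61 against 5.02 and 4.85 (0.59), and Mcm5 at 8.04 and 7.998 against 7.52 and 7.41 (0.55). In none of the 6 did the genotypes overlap. The loading factor Cdt1, which brings the ring to origins, was at 6.42 and 6.75 against 6.08 and 6.12 (0.48). In bulk RNA, more cells of a kind and more RNA per cell cannot be told apart.

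In the list of origin licensing and MCM helicase genes 19 of 27 were tested and 19 were higher. Of these 15 separated upward (78.9%, against 16.7% of all features) and 0 downward. An unadjusted p under 0.05 was reached by 8, beside 2.58% of all features in that direction. Without WT clone 16 that count was 5, and 3 of the 19 were lower. The median was 0.31, at 0.32 in clone 2 and 0.37 in clone 4, beside 0.0021 for all features. The 4 with overlapping clones were Cdc6, another loading factor, Cdc45, an activator of the ring, the origin recognition subunit Orc2 and Mcmbp, which binds free MCM proteins.

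**Figure D2:**
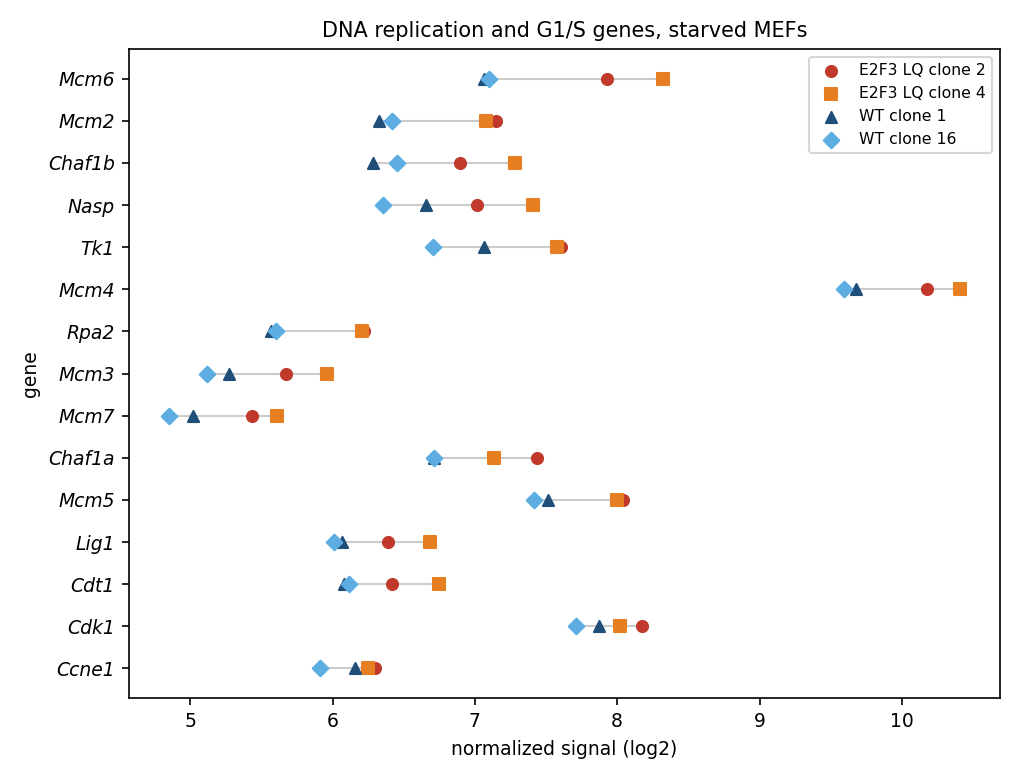
Normalized log2 signal (x axis) of 15 DNA replication and G1/S genes (y axis, ordered by difference) on each of the 4 starved arrays, 1 symbol per array. In each gene both E2F3 LQ symbols lie right of both WT symbols, with the largest difference, 1.04, in Mcm6 and the smallest, 0.24, in Ccne1.

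At the replication fork all 27 genes tested of 38 were higher in mean, with a median of 0.31. Of the 27, 21 separated upward (77.8%, against 16.7% of all features). An unadjusted p under 0.05 was reached by 11, beside 2.58% of all features in that direction. That count of 11 was 3 without E2F3 LQ clone 4, 5 without WT clone 1 and 3 without WT clone 16. Rpa2, a subunit of the single-strand DNA binding protein RPA, was at 6.22 and 6.21 in E2F3 LQ and 5.57 and 5.60 in WT, a difference of 0.63 (standard error 0.11). Replicate arrays of this gene lay within a narrow band and the genotypes were apart by 0.60. Tipin, which protects stalled forks, was at 9.44 and 9.60 against 8.999 and 8.99 (0.52), or 0.25 by a dimmer probe. The larger RPA subunit gene Rpa1 was at 10.65 and 10.79 against 10.36 and 10.31 (0.39).

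Fen1 and Lig1 complete lagging-strand synthesis by flap removal and ligation. Fen1 was at 8.11 and 8.24 against 7.78 and 7.64 (0.47), and Lig1 at 6.39 and 6.69 against 6.06 and 6.01 (0.50). Dimmer Lig1 probes were at 0.22 and 0.18. Timeless, the partner of Tipin, was at 6.19 and 5.93 against 6.02 and 5.05, where WT clone 1 overlapped the E2F3 LQ clones. Pcna, the sliding clamp, lay at background on each starved array.

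In deoxynucleotide synthesis the list was less uniform, with 8 of 10 genes higher and a median of 0.17. Of the 10, 6 separated upward and 2 downward (60% and 20%, against 16.7% and 17.1% of all features). Tk1, the thymidine kinase of S phase, was at 7.60 and 7.58 against 7.06 and 6.71, a difference of 0.71 (standard error 0.16). A dimmer Tk1 probe lay at -0.034 with overlapping clones. Thymidylate synthase Tyms was at 8.08 and 8.23 against 7.77 and 7.66 (0.44), while dimmer Tyms probes overlapped at 0.33 and -0.082. The pseudogene Tyms-ps was at 0.58, which cannot be read apart from Tyms with certainty because the sequences are alike. The ribonucleotide reductase subunit Rrm2 was at 0.23. Dck and the mitochondrial kinase Tk2, also salvage enzymes, were at -0.28 and -0.26, with Dck above background only in WT and at least 1.05-fold lower in E2F3 LQ.

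Histone chaperones of replication had 5 of 7 genes separated upward (71.4%, against 16.7% of all features) and a median of 0.35. The subunits of chromatin assembly factor 1, Chaf1b and Chaf1a, were at 6.89 and 7.28 against 6.28 and 6.45 (0.72) and at 7.44 and 7.13 against 6.71 and 6.71 (0.57). Nasp, which holds the soluble pool of histone H3 and H4, was at 0.71, or 0.38 with a dimmer probe, and Rbbp7 at 0.35. Asf1a, a chaperone also used outside S phase, was lower in both clones, at -0.28.

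A list of E2F targets measured by RT-PCR in starved MEFs held 16 genes, of which 13 were tested, 13 separated upward and 11 had an unadjusted p under 0.05, or 7 without WT clone 1 and 5 without WT clone 16. Among all features 16.7% separated upward and 2.58% were higher at that unadjusted p. The 13 genes had a median of 0.62, at 0.51 in clone 2 and 0.67 in clone 4. These genes had been chosen by the study for this state, so their count is a description and not independent evidence. Ccne1 and Cdk1, the cyclin E1 and mitotic kinase genes, had the smallest differences, 0.24 and 0.31. Ccna2 was not above background on any of the 4 arrays.

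Genes of G1 control lay on both sides of 0. Of 15 tested, 7 were higher and 8 lower, and the median was -0.010. In each direction 3 separated (20% each, against 16.7% upward and 17.1% downward of all features). Ccnd2, cyclin D2, was at 11.47 and 11.66 in E2F3 LQ against 12.09 and 11.99 in WT, a difference of -0.48 (standard error 0.13). The cyclin E partner Cdk2 was at 0.21, with clones apart by 0.038. The INK4 inhibitor genes Cdkn2c and Cdkn2d were at 0.38 and 0.21, and Cdkn2c was high only in clone 4.

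Mitosis and G2/M genes were higher in 27 of 29 (not Incenp and Foxm1), with 19 separated upward and 0 downward, but only 2 had an unadjusted p under 0.05 (5 without WT clone 1, 1 without clone 2 and 1 without WT clone 16). Among all features 16.7% separated upward and 2.58% were higher at that unadjusted p. The list median was 0.22, at 0.22 in clone 2 and 0.19 in clone 4. The WT clones also differed, with a median of 0.19 for WT clone 1 minus WT clone 16. Cdc25c, the phosphatase that activates Cdk1, was at 5.31 and 5.11 against 4.63 and 4.40 (0.70), above background on both E2F3 LQ arrays and on 1 WT array. The kinase Plk1 was at 6.99 and 7.13 against 6.82 and 6.59 (0.36). Birc5 (survivin) was at 0.33, topoisomerase Top2a at 0.39 and the condensin subunit Ncaph at 0.27, each without overlap.

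**Figure D3:**
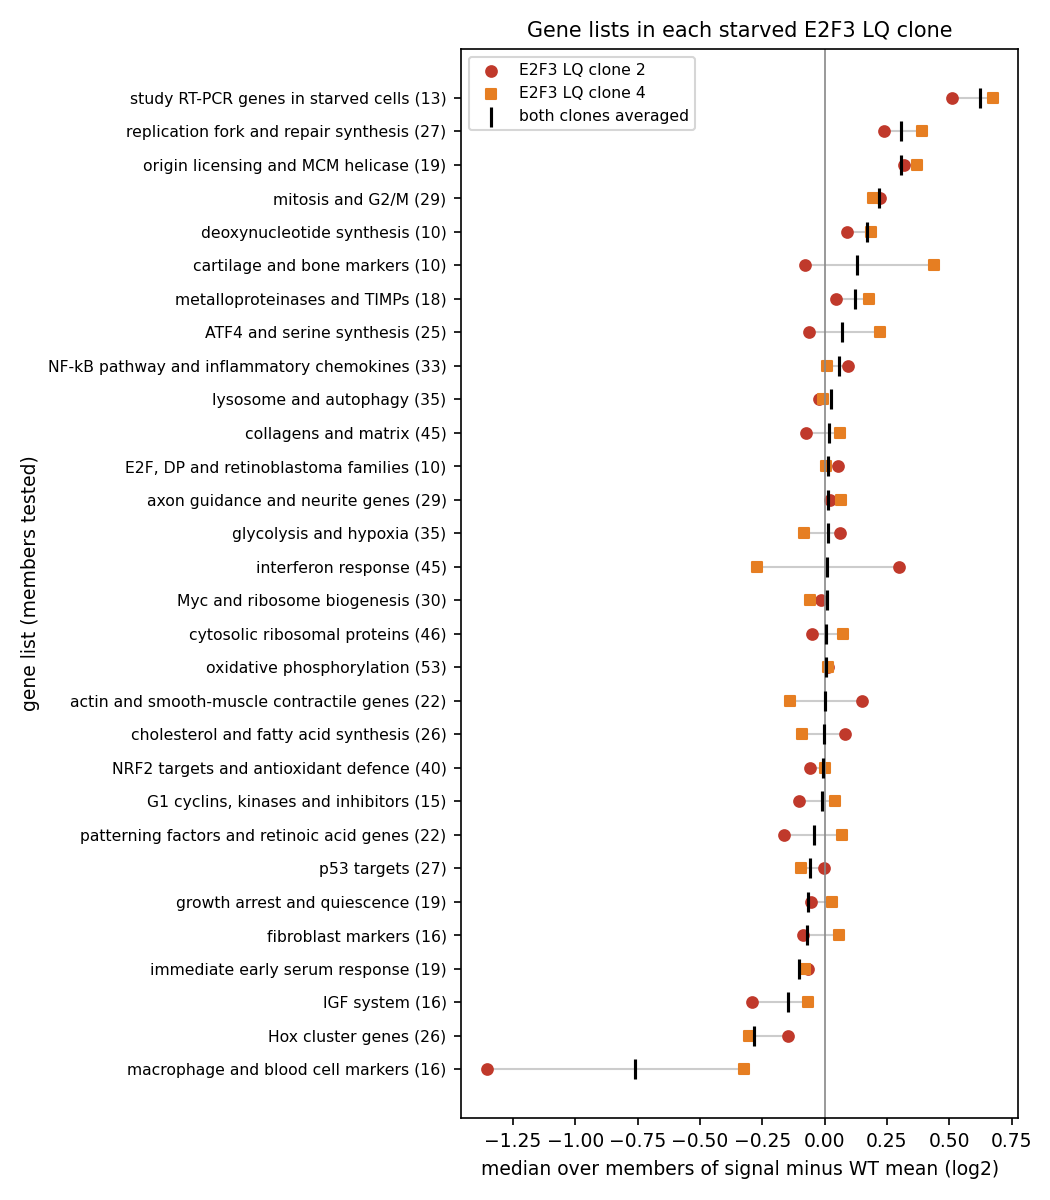
Median over the members of a gene list of signal minus the WT mean (x axis, log2) for E2F3 LQ clone 2, clone 4 and both averaged, in 30 lists with at least 10 members tested (y axis, number in parentheses), leaving out the list selected on the proliferating arrays. Replication and mitosis lists lie right of 0 in both clones, Hox genes and macrophage markers left of 0 in both, and the interferon list lies on opposite sides, at 0.30 in clone 2 and -0.27 in clone 4.

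The same genes were less uniform on the proliferating arrays, which share no array with the starved contrast but hold the same clones. In the fit over all 8 arrays the 13 RT-PCR genes had a median of 0.63 in starved and 0.19 in proliferating cells, where clone 2 lay at -0.054 and clone 4 at 0.46. Mitosis genes had medians of 0.24 and -0.028. Mcm6 was at 8.52 and 9.18 in proliferating E2F3 LQ clones 2 and 4 and at 8.42 and 8.41 in WT, a difference of 0.44, and the difference between serum conditions was 0.61 (standard error 0.34, adjusted p = 1 from limma). Over all features that interaction was called for 0 of 10214, with 156 at an unadjusted p under 0.05 (1.53%). That fit ignores that the same clones were measured in both conditions, and with the clone as a block 0 were called, with 101 higher and 102 lower (1.99%). In the fit without the block none of the 13 RT-PCR genes was under that p.

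Hoxa7, a homeobox factor that patterns the trunk, had the smallest p of all features (0.000195 from limma, unadjusted). Its signals were 8.18 and 8.22 in E2F3 LQ clones 2 and 4 and 9.26 and 9.42 in WT clones 1 and 16. The gap of 1.04 between the nearest clones was wider than the difference within either genotype, and the difference was -1.14 (standard error 0.12). Hoxa7 was named for its small p and wide gap, so these values describe the selection and add no support. On the proliferating arrays Hoxa7 was at 8.56 and 8.14 against 8.996 and 9.14 (-0.72), again without overlap.

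Hox genes keep the positional identity of fibroblasts after explant. Of 39 in the list 26 were tested and 19 were lower. The list median was -0.28, at -0.14 in clone 2 and -0.30 in clone 4. Of the 26, 14 separated downward (53.8%, against 17.1% of all features) and 4 upward (15.4%, against 16.7%). At an unadjusted p under 0.05 there were 5 lower and 1 higher, beside 3.24% and 2.58% of all features. The 5 became 10 without clone 2, 2 without clone 4, 2 without WT clone 1 and 1 without WT clone 16. Without E2F3 LQ clone 4 the median was -0.14, and with no background correction -0.079.

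The HoxB cluster was low mainly in clone 4. All 7 HoxB genes tested were lower in mean, with a median of -0.15 in clone 2 and -0.98 in clone 4. Hoxb7 was at 9.76 in clone 2 and 8.55 in clone 4 against 9.75 and 9.82 in WT, so clone 2 lay between the WT clones. Hoxb4 was at 5.67 and 5.19 against 6.01 and 6.55 (-0.85), with both clones below WT.

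Hoxa5 was at 9.12 and 8.60 against 9.40 and 9.50 (-0.59), and Hoxc9 at 8.67 and 8.47 against 9.03 and 8.99 (-0.44). Hoxd10 went the other way, at 8.45 and 8.37 against 8.10 and 7.96 (0.38). Split by number, a grouping chosen after the values were seen, 13 of 14 genes numbered 1 to 8 were lower and 11 separated downward, while 6 of 12 numbered 9 to 13 were lower, 3 separated downward and 4 upward.

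**Figure D4:**
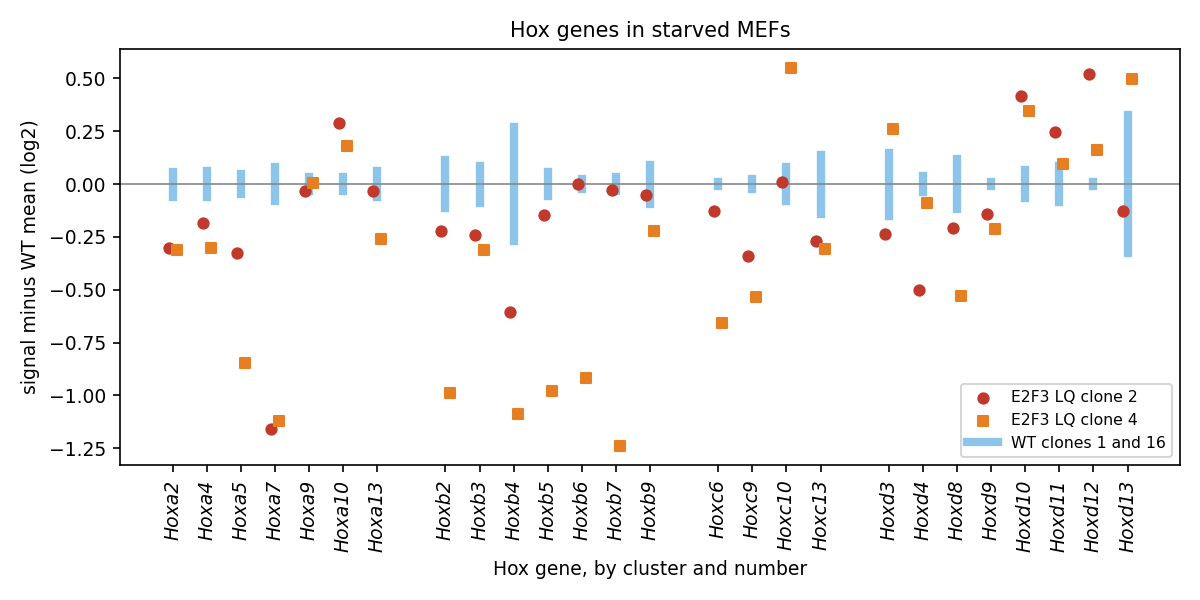
Signal minus the WT mean (y axis, log2) of 26 Hox genes (x axis, by cluster and number) in starved E2F3 LQ clones 2 and 4, with bars spanning WT clones 1 and 16. Hoxa7 is low in both clones and HoxB genes are low mainly in clone 4. Above the bars in both clones are 4 genes, 1 of HoxA and 3 of HoxD, among them Hoxd10 and Hoxd12.

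Markers of macrophages and blood cells, which MEF cultures can hold as passengers from the embryo, were lower in E2F3 LQ. Of 29 in the list 16 were tested and 15 were lower. Of the 16, 14 separated downward (87.5%, against 17.1% of all features) and 0 upward. An unadjusted p under 0.05 was reached by 9, beside 3.24% of all features in that direction. The median was -0.76, but -1.36 in clone 2 and -0.32 in clone 4. The summed signal of the list was 3131 in clone 2 and 7788 in clone 4 against 9958 and 9298 in WT. Without clone 2 the count at an unadjusted p under 0.05 was 4, and without WT clone 16 it was also 4.

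Adgre1, a surface antigen of macrophages, was at 5.60 and 5.94 against 6.91 and 7.01, a difference of -1.19 (standard error 0.15). Of its other probes 1 gave -1.21 and a dim 1 gave -0.097 with overlapping clones. Cd52 was at 6.13 and 6.91 against 7.63 and 7.94 (-1.27), the lysosomal gene Laptm5 at 8.25 and 8.96 against 9.79 and 9.68 (-1.13), and the complement gene C1qb at 5.28 and 6.04 against 6.66 and 6.99 (-1.17). Fcer1g, a signalling chain of Fc receptors, was at 6.58 and 7.91 against 8.22 and 8.76 (-1.25). In each of these clone 2 was lowest and clone 4 next.

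Outside the list, the immune genes Slamf9 and Ms4a6d were at 4.98 and 4.99 against 6.15 and 5.93 (-1.05) and at 6.29 and 6.84 against 7.58 and 8.21 (-1.33, or -0.62 by a dimmer probe). The GTPase gene Rac2 of blood cells was at 4.76 and 4.89 against 5.63 and 5.44 (-0.71). Within the list, Cd53 was above background only in WT and at least 1.25-fold lower in E2F3 LQ. The blood cell marker Ptprc, the integrin Itgam and the receptor Cx3cr1 lay at background on each starved array, while the lysozyme gene Lyz2 was at 9.33 and 10.89 against 11.08 and 11.04, with a sequence close to that of Lyz1. Cd14, which other cells also express, was at 0.082 with overlapping clones. In proliferating cells the list median was -0.85, but -0.0069 in clone 2 and -1.90 in clone 4, so the clone with the lower markers differed between serum conditions. The part of passenger cells in the results for other genes was not tested.

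**Figure D5:**
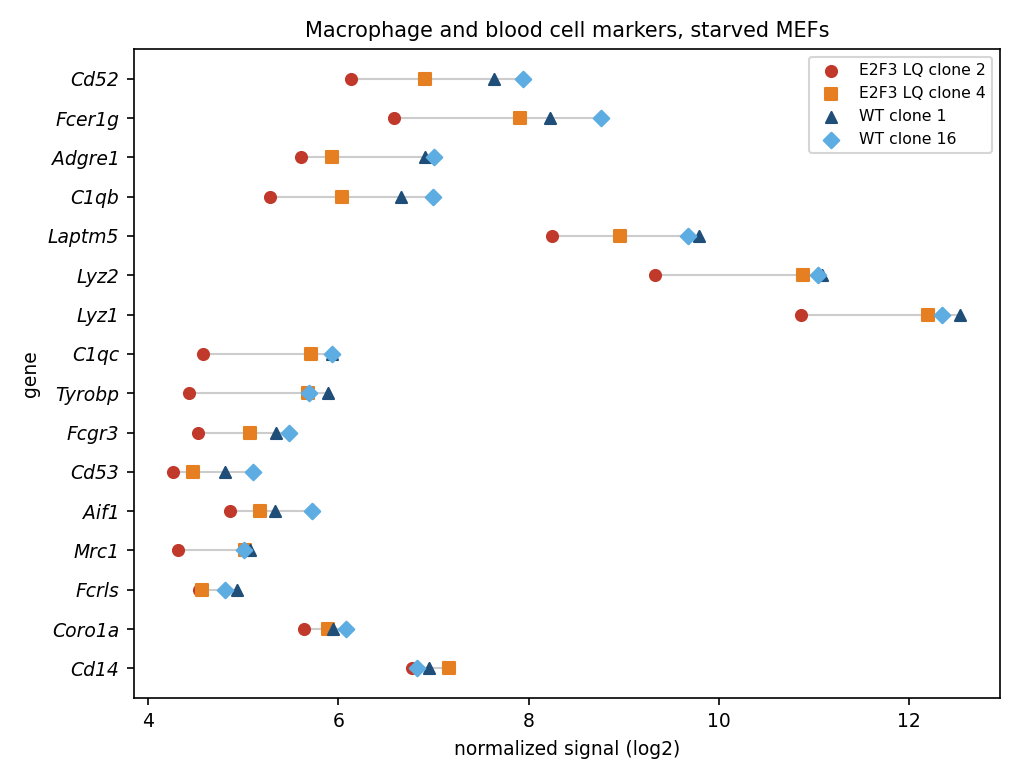
Normalized log2 signal (x axis) of 16 macrophage and blood cell markers (y axis, ordered by difference) on each of the 4 starved arrays, 1 symbol per array. E2F3 LQ clone 2 lies lowest in each of the 16 markers, and clone 4 lies between it and the WT clones in 14.

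Other cell type lists had few members above background. Of 16 endothelial markers 5 were tested, with a median of -0.10, of 16 epithelial markers 5 with a median of 0.31, and of 20 skeletal muscle markers 6 with a median of -0.032. The basal keratin Krt15 and the simple keratin Krt7 were above background only in E2F3 LQ, at least 1.13- and 1.16-fold higher. Their signals, at most 4.92, lay near the detection limit of 4.61 to 4.64.

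Tgfbi, Mmp3 and Chil1, which encode secreted proteins, were among the 10 genes detected on all 4 arrays with the widest gaps upward. Tgfbi, a TGF-beta induced matrix protein, was at 9.16 and 9.07 in E2F3 LQ against 8.23 and 8.25 in WT, a difference of 0.88 (standard error 0.12). A second Tgfbi probe gave 0.70. The stromelysin gene Mmp3 was at 13.09 and 12.69 against 11.54 and 11.99 (1.12), with further probes at 1.29 and 0.86. In proliferating cells Mmp3 was at 13.62 in clone 2 but at 6.15 in clone 4, against 6.41 and 5.78 in WT. Chil1, a chitinase-like secreted protein, was at 6.25 and 7.68 against 5.36 and 5.63 (1.47) and higher in clone 4 than in clone 2.

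Cartilage and bone genes lay on both sides of 0 as a list. Collagen X, Col10a1, the product of hypertrophic chondrocytes, was at 6.14 and 5.98 against 5.29 and 4.82 (1.00). The calcification inhibitor Mgp was at 13.70 and 13.98 against 13.27 and 13.18 (0.61), and the cartilage matrix gene Comp at 5.67 and 5.90 against 5.08 and 5.33 (0.58). Sox9, the master factor of chondrocytes, was at 5.58 and 5.49 against 6.05 and 6.18 (-0.58). The list median over 10 genes was 0.13, at -0.079 in clone 2 and 0.44 in clone 4.

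Among 45 collagen and matrix genes 23 were higher and 22 lower, with a median of 0.018. Loxl2, a collagen cross-linking enzyme, was at 7.48 and 7.07 against 8.05 and 8.14 (-0.82). The elastic fibre gene Mfap4 was at 0.49, and the laminin chain Lamb1, above background only in WT, was at least 1.22-fold lower. Of 18 metalloproteinase and TIMP genes 12 were higher, 6 separated upward and 2 downward (33.3% and 11.1%, against 16.7% and 17.1% of all features). Mmp9 was at 0.35, and Mmp19, above background only in E2F3 LQ, was at least 1.32-fold higher.

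Axon guidance and neurite genes lay on both sides of 0. Of 29, 7 separated upward and 7 downward (24.1% each, against 16.7% and 17.1% of all features). Dpysl3, which binds microtubules and tubulin in growth cones, was at 7.40 and 7.37 against 8.56 and 8.19, a difference of -0.99 (standard error 0.16). Map1b, a microtubule-associated protein, was at 5.13 and 5.34 against 6.68 and 5.88 (-1.04), with WT clone 1 highest. In proliferating cells Map1b lay between 6.38 and 6.64 in all 4 clones, and the difference between serum conditions was -1.01 (standard error 0.38, adjusted p = 1 from limma). Plxna2, a semaphorin receptor, was at 6.56 and 6.78 against 7.20 and 7.12 (-0.49), Nav1 at -0.43 and the ephrin Efnb1 at -0.44. In the list of axon guidance and neurite genes 6 of 29 had an unadjusted p under 0.05, all lower, beside 3.24% of all features. However, 16 of the 29 were higher and the median was 0.014.

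Cdca7, a Myc- and E2F-responsive gene, was at 7.79 and 7.95 against 7.08 and 7.03 (0.82). S100a4, a calcium-binding protein of motile fibroblasts, was at 7.21 and 7.44 against 6.44 and 6.37 (0.92). Shcbp1 was above background only in E2F3 LQ, at least 1.21-fold higher. In Cdca7 and S100a4, detected on all 4 arrays, the genotypes did not overlap. Shcbp1 passed the detection filter through the E2F3 LQ arrays alone, so its separation adds nothing to the bound.

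On the lower side, Smap1, which regulates Arf6 in membrane traffic, was at 8.12 and 8.08 against 8.87 and 8.80 (-0.73), the Notch-binding receptor Dner at 5.13 and 4.93 against 5.82 and 5.73 (-0.74), and the glypican Gpc6 at 6.25 and 6.33 against 7.22 and 6.95 (-0.80). Aldh1a1, a retinaldehyde dehydrogenase, was at 4.87 and 5.01 against 5.59 and 5.71 (-0.71). Ice2 of the little elongation complex was at -0.69. Dpysl3, Dner and Gpc6 were also lower in proliferating E2F3 LQ MEFs, at -0.72, -1.03 and -0.91, but with overlapping clones in Dner. Smap1, Aldh1a1 and Ice2 were at -0.12, -0.052 and -0.23 there, and no difference between serum conditions had an adjusted p under 0.05.

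Of 22 patterning and retinoic acid genes 9 were higher, 3 separated upward (13.6%) and 2 downward (9.09%), shares below those of all features. The hindlimb factor Tbx4 was above background only in E2F3 LQ, at 4.73 and 5.69, at least 1.502-fold higher. The retinoic acid receptor Rarg was at 0.56, but a second probe gave 0.10 with overlapping clones.

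Growth factor and serum response lists had medians below 0. Of 16 IGF system genes 5 were higher and 4 separated downward (25%, against 17.1% of all features), with a median of -0.15. The mRNA-binding protein Igf2bp1 was at -0.52 and the insulin receptor substrate Irs2 at -0.38. Of 19 immediate early genes 13 were lower, with a median of -0.10, and Fos was at 7.26 and 7.40 against 7.69 and 8.04 (-0.53). The growth arrest gene Gas7 was at -0.31.

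Many lists lay near 0. Medians lay between -0.059 and 0.068 for interferon response, NF-kB, NRF2, glycolysis and hypoxia, cholesterol, p53, ATF4, lysosome, Myc, ribosomal protein and oxidative phosphorylation genes. Several of these lists differed between the E2F3 LQ clones. For interferon genes the WT clones differed as well, with a median of -0.46 for WT clone 1 minus WT clone 16. Of 45 interferon genes 22 were above both WT clones in clone 2 and 20 below both in clone 4. For glycolysis and hypoxia these counts were 16 and 21 of 35, and for all features 3290 and 3447 of 9455. The other way, 12 of 25 ATF4 genes were below both WT clones in clone 2 and 17 above both in clone 4. For ribosomal protein genes these counts were 19 and 26 of 46, and for all features 3198 and 3366. The 116 measured genes that the study selected as higher on its proliferating arrays had a median of 0.95 there, a value that their selection fixed, at 2.06 in clone 2 and -0.12 in clone 4. In starved cells it was 0.054 in the same fit over all 8 arrays. On the starved arrays 26 of them separated upward (22.4%, against 16.7% of all features) and 7 downward (6.03%, against 17.1%).

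Of 4 embryo sex genes tested, 3 split the clones within each genotype. Xist was at 7.65 in E2F3 LQ clone 4 and 7.40 in WT clone 16 and at 4.38 and 4.46 in clones 2 and 1. Eif2s3y, on the Y chromosome, was at 6.99 in clone 2 and 7.53 in WT clone 1 and at 4.18 and 4.23 in the other two. Kdm5d, also on the Y chromosome, was at 5.30 in clone 2 and 5.30 in WT clone 1 and at 4.20 and 4.22 in the others. Uty, a further Y-linked gene, did not split them, at 4.76 and 4.97 in E2F3 LQ and 4.88 and 4.83 in WT. By those 3 genes each genotype held 1 clone of each pattern.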

How the data were processed

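Signals came from Illumina mouse bead arrays, 1 per clone and condition. The deposited signal intensity of each probe was not normalized by the authors, and a detection p-value accompanied it in the deposited table. Values the authors deposited on a normalized scale were used only as an alternative. Probes were named from the platform annotation, with 23978 of 25697 carrying 1 symbol, 0 several and 1719 none. RefSeq held the Entrez gene of 23962 and changed 0 symbols. In R 4.3.3 with limma 3.58.1, neqc corrected background from the detection p-values, added an offset of 16, quantile-normalized and took log2 values. Probes with detection p under 0.05 on at least 2 of 4 arrays were kept, and the brightest probe stood for a gene. Differences were tested with lmFit and eBayes and Benjamini-Hochberg adjustment, and the scripts were tested on simulated data. The serum interaction used all 8 arrays. The number of arrays limits precision.

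A probe above background in neither array of a genotype gives only a bound, the mean of the brighter genotype over the lowest detected signal or the probe's own value, whichever is higher. Named genes were the RT-PCR genes of the study, the E2F, DP and Rb families, the smallest p-values and widest gaps without overlap in each direction, and leading members of each gene list. Cd14, Cdc6, Lyz2, and genes named with small counts or other settings were singled out after their values were seen. Members and lists were chosen with earlier results of these data known. Alternatives were other background corrections, scalings, filters, probe rules, array sets, the methods' t-test, a replicate block and leaving out each array.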

Additional observations from a re-analysis of the deposited data

How the results depend on the processing

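Of the results for 96 single genes, 9 passed the adjusted threshold under median scaling, and none with quantile normalization. The medians of the licensing, fork and Hox lists were put through the alternatives after their values were seen. With no background correction the medians were 0.25 for the RT-PCR genes, 0.11 for mitosis, -0.24 for macrophage markers, 0.17 for licensing, 0.13 for fork and -0.079 for Hox genes. With an offset of 50 they were 0.40 for RT-PCR and -0.13 for Hox genes. Median scaling called 6 genes higher and 8 lower, gave 158 and 101 at an unadjusted p under 0.05, and put the licensing and fork medians at 0.40 and 0.40. Without a detection filter 468 and 546 of 18312 features were under that p and the Hox median was -0.094, while detection on all 4 arrays gave -0.38. All 8 arrays in the model gave 98 and 128. The methods' t-test called 1 gene higher after adjustment, Prps1l3, and 0 lower. Leaving out each array in turn called 0 genes, gave 104 to 413 higher and 139 to 455 lower, and medians of 0.51 to 0.67 for RT-PCR, 0.14 to 0.30 for mitosis, -1.36 to -0.32 for macrophage, 0.28 to 0.40 for licensing, 0.24 to 0.39 for fork and -0.30 to -0.14 for Hox genes. Replicate numbers were given in accession order and name clones without pairing them by design. Same-numbered clones correlated at 0.204 in their within-genotype differences and shared the pattern of Xist and Eif2s3y, and with the replicate block 0 genes were called, with 299 higher and 354 lower under that p. Near-zero values changed sign for E2f2 (-0.00097 as a mean over probes, -0.093 to 0.14 without an array), and over the left-out arrays for Tfdp2 (-0.155 to 0.050), E2f6 (-0.090 to 0.10) and Cd14 (-0.11 to 0.27). The causes were not tested.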
